A study of Harpegnathos saltator with 27 samples.

Results

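The genes described here are 78 genes outside the receptor families whose read counts were higher in antennae of late orco mutant pupae than in WT. They were picked from 13988 genes of the jumping ant Harpegnathos saltator that are neither odorant, ionotropic, nor gustatory receptor genes, among 14407 genes in all. To be a member, a gene needed a mutant D25 mean of 50 normalized counts or more, which 9371 of the nonreceptor genes had. At both D20 and D25 its mutant mean also had to exceed 1.5 times the WT mean, with every mutant library above every WT library. At D20, 6.74% of the 9371 genes had such separated libraries and 3.08% also exceeded the ratio, and at D25 these shares were 15.7% and 11.5%. The 78 members made up 0.832% of the 9371 genes. The D20 and D25 values chose the members, so the members' differences at those stages are described without a test, and members are tested only at D10 and D15. Another 112 genes missed only the ratio, 16 missed only the minimum mean, and 534 missed only the separation of the libraries.

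Bulk RNA sequencing covered pupal antennae of WT and of homozygous orco mutants at 4 ages. D10, D15, D20, and D25 name the age in days after puparium formation (APF). WT had 3 libraries at D10 and 4 at each later stage, and mutants had 3 at each stage, 27 libraries in all. The 8 groups are defined by genotype and stage, and their libraries also differ in sequencing batch, as described below. The labels name no agent given to either genotype. The labels do not say whether the libraries of a group came from separate animals or pools, so p-values measure only the spread between these libraries. The question addressed here is how nonreceptor genes that stand higher in late mutant antennae behave over all 4 stages.

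Orco is the co-receptor with which insect odorant receptors form ion channels, and the olfactory receptor neurons that carry them are the most abundant neurons of an ant antenna. The rest of the antenna holds other sensory neurons, including ciliated mechanosensory neurons, the support cells that build the hairs and surround the dendrites, glia, epidermis that secretes cuticle, hemocytes, and muscles at the base. A bulk library sums the RNA of all of them, so fewer cells of a type and less RNA per cell cannot be told apart.

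Gene counts per library were 3454610 to 52275933, with a median of 22719131. All 27 libraries come from 3 sequencing batches that are unevenly spread: the D25 mutants are all from batch 3, of the D25 WT libraries only replicate 4 is, and of the D20 libraries batch 3 held WT replicate 4 and mutant replicates 2 and 3. Batch 2 held mutants only, D10 replicates 2 and 3 and D15 replicate 1. The WT D10 libraries and mutant D10 replicate 1 were from batch 1, as were WT D15 replicates 1 to 3, and WT D15 replicate 4 and mutant D15 replicates 2 and 3 were from batch 3. The targeted gene orco was lower in mutants at D20 and D25 (ratios of means 0.394 and 0.0940) and higher at D10 and D15 (2.22 and 2.21). The neuronal marker nSyb, a synaptic vesicle protein gene, had ratios of 0.265 and 0.350 at D20 and D25. Among the other neuronal markers, fne had 0.705 and 0.743, Syt1 0.687 and 0.916, and onecut 0.355 and 0.346. The glial marker repo had ratios of 1.57 and 1.66 and the epithelial marker grh 3.40 and 0.932. At D20 repo overlapped, at 789 to 1324 in WT and 1109 to 1883 in mutants. The 9 genes of a glia list summed to 23529 to 31833 in WT and 23369 to 42021 in mutants at D20. At D25 they summed to 17516 to 36639 and 22708 to 32452. The 4 support cell markers differed among themselves, with 1.89 and 2.54 for sv, 0.169 and 0.387 for a4GT1/2, 0.278 and 1.07 for LOC105182650, and 1.13 and 0.686 for LOC105188530. Their sum was 7252 to 8643 in WT and 4345 to 7343 in mutants at D20, and 6054 to 46579 against 14674 to 23769 at D25. The summed level of the 4 neuronal markers was 9821 to 19136 in WT and 5417 to 8832 in mutants at D20, and 7222 to 22159 against 8563 to 9936 at D25. None of the 4 was at 0 in any group. The part of these marker differences in the values below was not tested.

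Of the 78 members, 65 are protein coding in RefSeq, 4 are lncRNAs, 2 are pseudogenes, and 7 are gene models that RefSeq does not list. Only 19 carry a gene symbol that gives a clue to function. Their mutant D25 means ran from 53.6 to 17237 with a median of 411. All members passed the count minimum of the tests. In the plot of each member across libraries, the D20 and D25 mutant columns stand above the WT columns beside them by construction, while D10 and D15 show no such block.

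**Figure D1:**
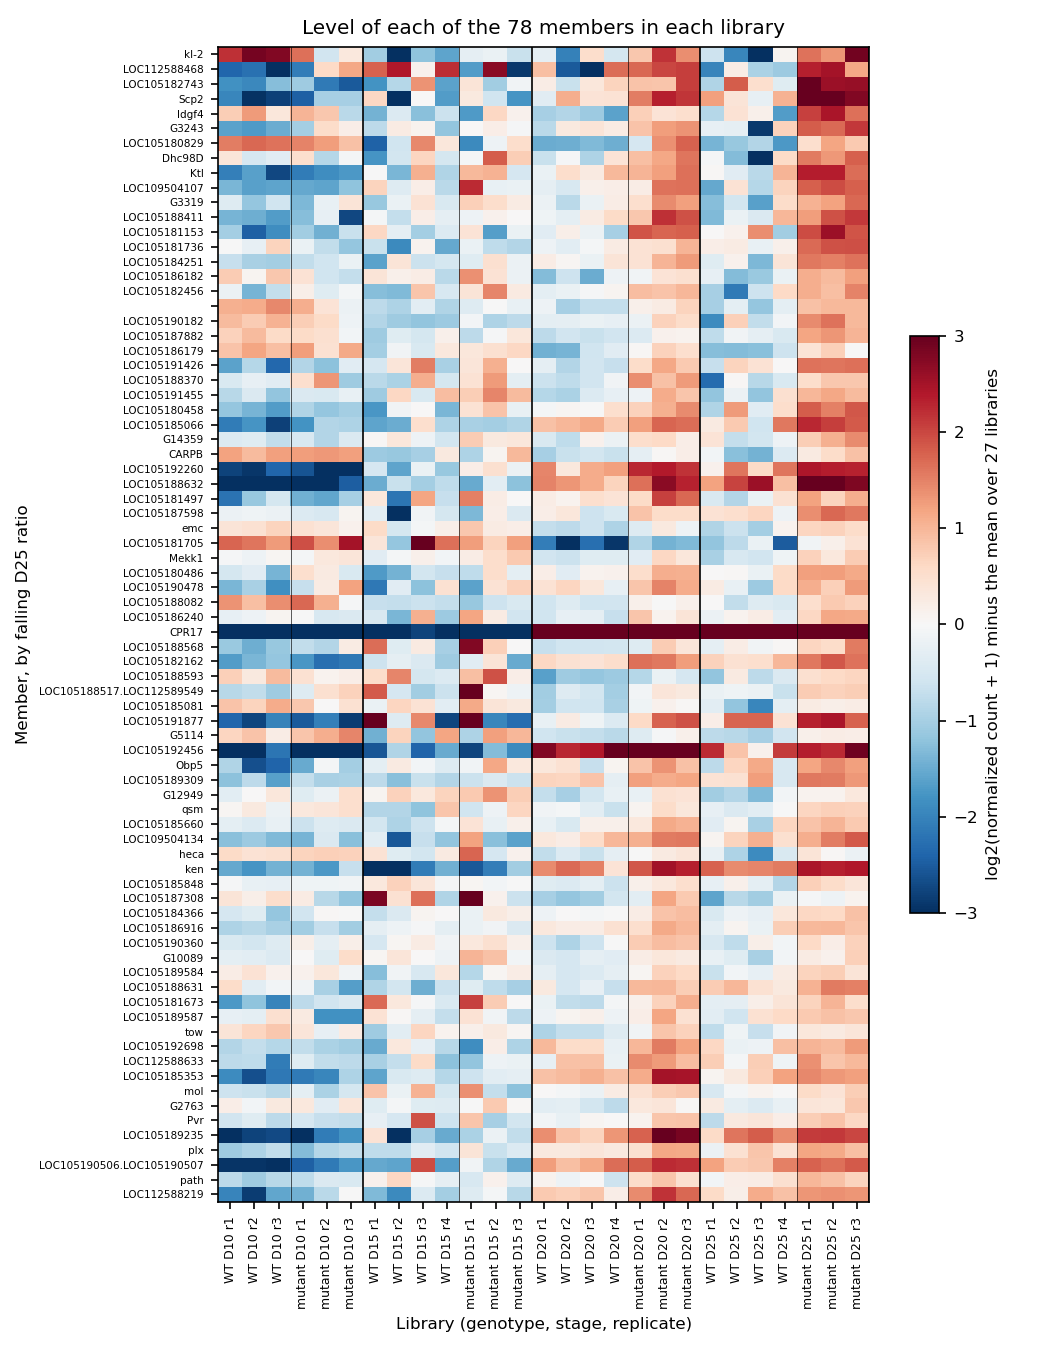
Level of each of the 78 members (rows, by falling D25 ratio) in each of the 27 libraries (columns, by stage, genotype and replicate), as log2(normalized count + 1) minus the mean over libraries, on a scale cut at 3 in both directions, with 1 row left without a label. Members differ widely in their course over the stages, and mutant D20 replicate 1 is paler than mutant D20 replicates 2 and 3.

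Across the members the ratio of the mutant to the WT mean had medians of 1.10, 1.33, 1.89, and 2.05 from the youngest to the oldest stage. The genes with the same minimum had medians of 0.993, 0.987, 1.02, and 1.03. At D20, 33 members had a ratio over 2 and 10 a ratio over 3, and at D25 these counts were 46 and 18. For the genes with the same minimum, the 95th percentile of the ratio was 1.95 at D20 and 2.27 at D25. The D25 ratio was above the D20 ratio in 54 members, and the D20 ratio was above the D15 ratio in 70. The rule favors these counts, because it required high ratios at D20 and D25 but not at D15. Their shares over all genes are not given here.

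**Figure D2:**
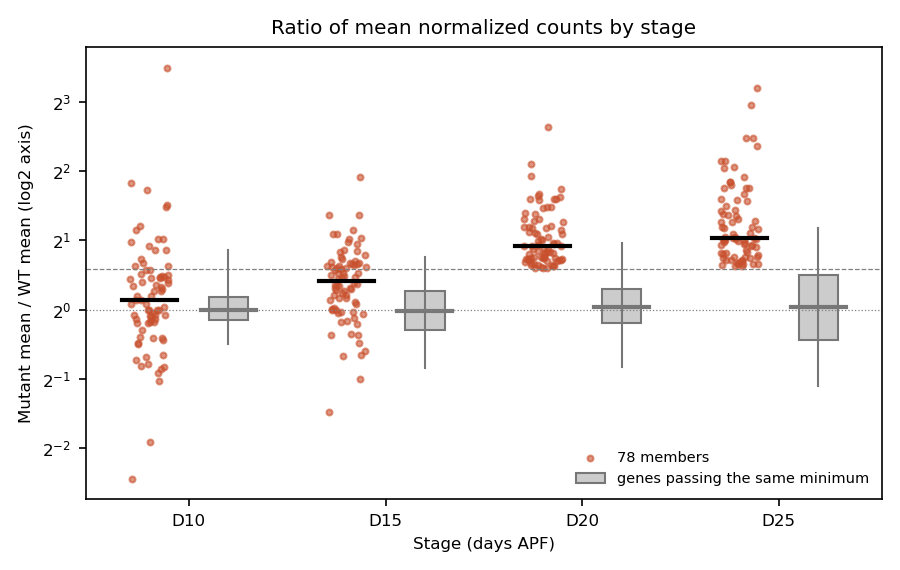
Ratio of the mutant to the WT mean normalized count at each stage (log2 axis), with a point for each of the 78 members and a black bar at their median, and in gray the median, quartiles (box), and 5th to 95th percentile (line) of the 9371 genes with the same minimum. The dashed line is the ratio of 1.5 that members had to exceed at D20 and D25; at D10 and D15 the points spread to both sides of 1, with medians of 1.10 and 1.33.

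At D10 and D15, which the rule did not use, no single member passed the test. With edgeR's quasi-likelihood test and adjustment over 11086 genes, 0 of 78 members were higher or lower in mutants at D10, against 0.171% of all genes higher and 0.0271% lower. At D15 it was again 0 of 78, against 0% of all genes higher and 0.00902% lower. At an unadjusted p under 0.05, 6 members were higher and 4 lower at D10 (3.96% and 1.62% of all genes), and 12 were higher and 0 lower at D15 (3.64% and 5.96% of all genes). DESeq2's test also called 0 members at both stages. The fitted log2 fold changes of mutants over WT had a median of 0.11 at D10 and 0.38 at D15 over the members, and of −0.015 and −0.033 over all genes tested. At D15, 59 members had a mutant mean above the WT mean, or 75.6%, against 48.2% of the genes with the same minimum, and at D10 it was 45, or 57.7%, against 48.3%. Within batch 1 at D10, with 1 mutant library, the members' median ratio was 1.07, with 15 above 1.5 (background 3.26%). Within batch 3 at D15, with 1 WT library, it was 1.45, with 37 above 1.5 (background 9.18%).

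At D10, every mutant library was above every WT library in 13 members, or 16.7% (background 7.32%), and below in 6 (7.69%, background 10.8%). At D15 the count was 7 above, or 8.97% (background 4.28%), and 0 below (background 4.62%). The 7 were kl-2, Mekk1, LOC105186179, LOC105189309, LOC105192260, G12949, and G2763. Mekk1, a kinase at the head of MAP kinase cascades, read 1089, 1289, 1308, and 1527 normalized counts in the WT D15 libraries and 1599, 1965, and 2377 in the mutants. Its groups did not overlap, but the log2 fold change of 0.58 ± 0.20 (SE) had an adjusted p of 0.427 by edgeR's test.

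kl-2 (LOC105189200) had the largest D25 ratio of the members and is named for a Drosophila axonemal dynein heavy chain, a motor of sperm tails. In WT its normalized counts were 131, 197, and 210.3 at D10, then 0, 8.61, 11.5, and 12.9 at D15, followed by 6.06, 18.9, 22.7, and 40.6 at D20 and finally 0, 6.41, 17.8, and 29.2 at D25. Mutant libraries had 18.2, 34.9, and 89.6 at D10, then 17.1, 22.8, and 23.8 at D15, followed by 49.2, 74.2, and 127 at D20 and finally 70.6, 87.2, and 211 at D25. WT was thus above mutants at D10 without overlap, and mutants above WT from D15 on. At D10 the mutant values of 18.2 and 34.9 rest on 7 and 9 counts, both from batch 2, which held no WT library. Mutant D10 replicate 1, of the same batch as the WT D10 libraries, read 89.6. The mutant D15 values rest on 9 to 72 counts per library and the WT D25 values on 0 to 54. The ratios of means over the 4 stages were 0.265, 2.57, 3.79, and 9.21. Against the single WT library of the same batch the D25 ratio was 4.21, and at D20 it was 2.13 within batch 1 and 5.34 within batch 3.

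From D10 to D15 kl-2 in WT changed by −4.48 ± 0.83 (SE) on the log2 scale (adjusted p = 0.000561, edgeR), and in mutants the estimate was −1.29 ± 0.84 (adjusted p = 0.306). The WT change passed the threshold with each in turn left out of the 7 D10 and D15 WT libraries. The difference between the genotypes in this step was 3.19 ± 1.15 and did not pass (adjusted p = 0.658). The mutant minus WT difference was −1.87 ± 0.83 at D10 (adjusted p = 0.785) and 1.33 ± 0.80 at D15 (adjusted p = 0.560).

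Dhc98D (LOC105188147), which shares its symbol with another Drosophila axonemal dynein heavy chain, had 0, 20.5, 51.5, and 78.4 normalized counts in WT and 131, 157, and 183 in mutants at D25. At D20 it had 27.1, 32.6, 50.9, and 70.3 in WT and 98.5, 119, and 160.4 in mutants. At D15 the groups overlapped, with 14.6 to 81.9 in WT and 50.7 to 187 in mutants, and the log2 difference of 1.38 ± 0.65 had an adjusted p of 0.520 by edgeR. At D10 the means were 48.6 and 51.4. The WT D25 values of 0 for kl-2 and Dhc98D are both from WT D25 replicate 3, the library with the smallest size factor (0.218).

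Of the 7 genes with an axonemal dynein heavy chain symbol, a list written after the members were known, 6 passed the count minimum and kl-2 and Dhc98D are the members. Dhc93AB (LOC105181834) read 24.4 to 76.2 in WT and 211 to 236 in mutants at D25, but at D20 its ranges of 40.6 to 62.0 and 54.3 to 128 overlapped. Dhc36C (LOC105190989) read up to 37.8 in WT and 62.0 to 65.7 in mutants at D25 and also overlapped at D20. Dhc62B (LOC105182921) went the other way, with ratios of 0.595 and 0.799. The mechanosensory marker nompC, a channel of ciliated touch and hearing neurons that the rule leaves out, had a ratio of 1.31 at D20 and 2.55 at D25, and its part was not tested.

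Scp2 (LOC105181280), named for a sarcoplasmic calcium-binding protein, followed a late course in mutants. Its D20 values were 12.7, 22.1, 22.4, and 36.3 in WT and 49.2, 76.0, and 86.6 in mutants. At D25 they were 13.8, 21.8, 35.1, and 39.6 in WT and 118, 142, and 199 in mutants, a ratio of 5.55. At D10 and D15 no library was above 25.8 and the D15 means were 11.7 and 11.6. The muscle marker Mhc, a myosin heavy chain gene, had ratios of 0.613 at D20 and 6.60 at D25. The 10 muscle genes of the list used, none of them a member and none at 0, summed to 26142 to 46240 in WT and 34400 to 36611 in mutants at D20, and to 16954 to 55308 and 76135 to 81407 at D25. The part of muscle RNA in the values of Scp2 was not tested.

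**Figure D3:**
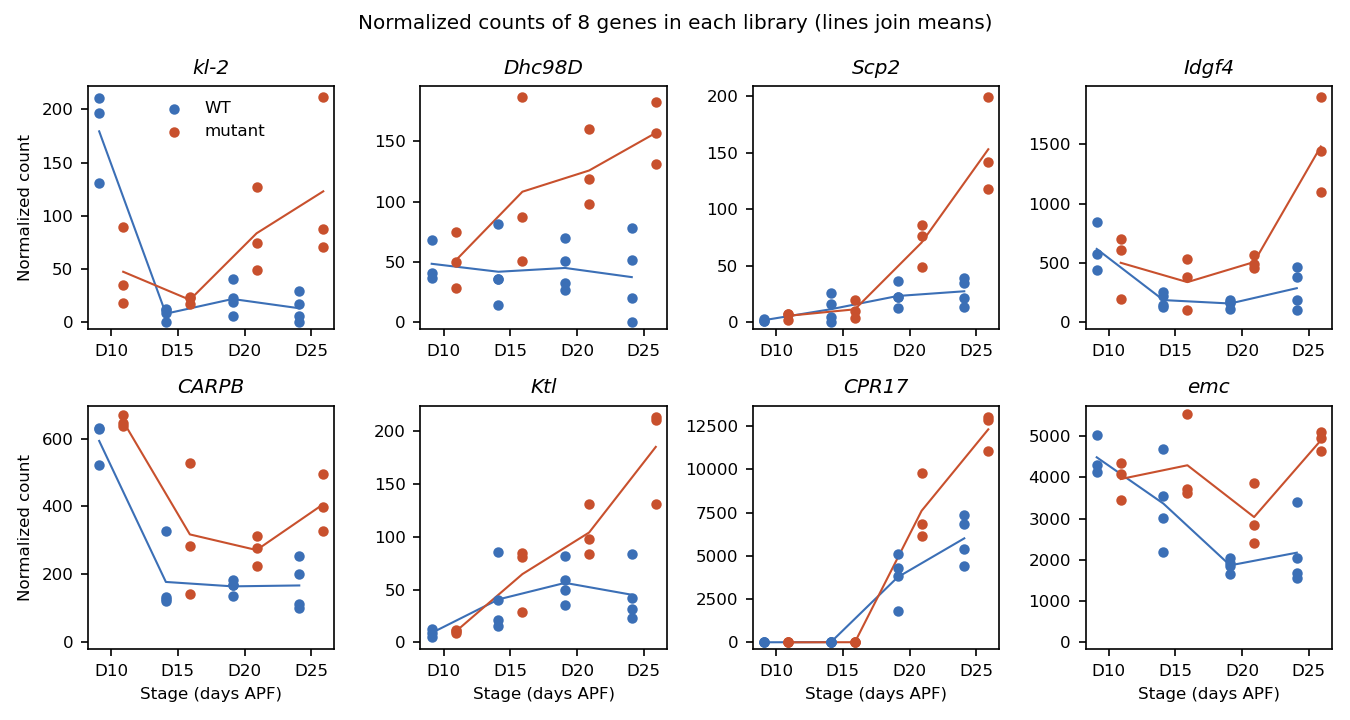
Normalized counts (vertical axes, each from 0) of 8 members by stage in WT (blue) and mutants (orange-red), with a point per library and lines joining the means. kl-2, Idgf4 and CARPB start high in WT at D10 and are lower from D15, and Idgf4 and CARPB start high in mutants too. In mutants the D25 means of kl-2, Idgf4 and CARPB are above their D15 means, and in WT those of kl-2 and Idgf4 are as well. Scp2, Ktl and CPR17 start low in both genotypes.

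Idgf4 (LOC105182483) encodes an imaginal disc growth factor, one of the secreted chitinase-like proteins that in Drosophila act in cuticle formation and wounding. WT libraries had 438, 575, and 842 normalized counts at D10, then 128, 145, 221, and 259 at D15, followed by 114, 162, 174, and 188 at D20 and finally 108, 190.0, 386, and 469 at D25. Mutant libraries had 198, 608, and 699.7 at D10, then 106, 379, and 533 at D15, followed by 460.4, 495, and 569 at D20 and finally 1095, 1445, and 1899 at D25. The genotypes overlapped at D10 and D15 and were far apart at D25, with a ratio of 5.13. Against the single WT library of the same batch the D25 ratio was 13.7. The log2 change from D10 to D15 was −1.76 ± 0.49 in WT (adjusted p = 0.0112, edgeR), and −0.61 ± 0.53 in mutants (adjusted p = 0.439). Without WT D10 replicate 2 the WT adjusted p was 0.0633.

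CARPB (LOC105187969), a carbonic anhydrase-related protein gene, also fell in WT, with a D10 to D15 change of −1.77 ± 0.38 (adjusted p = 0.00160, edgeR). Its WT libraries went from 523, 627, and 629.8 normalized counts at D10 to 121, 126, 134, and 329 at D15. At D25, WT stood at 101, 113, 202, and 253 and mutants at 328, 398, and 494, a ratio of 2.43. Mutant libraries read 636 to 668 at D10, all above WT, and 142 to 527 at D15, with means of 650 and 318. The genotypes overlapped at D15 and were apart at D10 and D25.

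Ktl (LOC105182761), named for the Drosophila relative of KCTD12, a cytoplasmic partner of membrane receptors, had 5.32 to 12.4 normalized counts in all D10 libraries. Its D10 to D15 change was 2.09 ± 0.56 in WT (adjusted p = 0.00863, edgeR) and 2.62 ± 0.63 in mutants (adjusted p = 0.0135). The WT call was lost without WT D10 replicate 3 (adjusted p = 0.0548). The mutant call was lost without D10 replicate 1 (0.107), D10 replicate 2 (0.0539), or D15 replicate 1 (0.0530). At D25 WT libraries read 23.0, 32.1, 41.6, and 83.8 and mutants 131, 211, and 214, a ratio of 4.11 after 1.85 at D20.

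CPR17 (LOC105182694), a cuticular protein gene of the Rebers and Riddiford type by its symbol, was close to absent at D10 and D15, at 0 to 25.6 normalized counts in all libraries. At D20 it read 1810.5, 3859, 4276, and 5109 in WT and 6153, 6861, and 9806 in mutants, and at D25 4412, 5400.3, 6858, and 7388 in WT and 11078, 12853, and 13028 in mutants. Its ratio was 2.02 at D20 and 2.05 at D25, and both genotypes had their highest mean at D25. Of 25 genes matched by symbol to a cuticle and chitin list, 24 were tested, and CPR17 was the only member. By edgeR's test ChT was lower at D20 and D25 (ratios 0.227 and 0.368), CPR6 was higher at D25 (2.79, after 0.366 at D20), and CPR1 was lower at D10. Of all genes tested, 0.749% were called higher and 3.99% lower at D20, and 5.18% and 11.3% at D25. The median log2 fold change of the list was 0.55 and 0.63 at D20 and D25, with 15 and 21 of 24 above 0, CPR17 included, where 49.3% and 49.7% of all genes tested were. At D10 and D15 it was −0.99 and −0.61. The match was by symbol alone, and the symbols CDase, Cpr and ChT do not by themselves name a cuticle gene.

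mol (LOC105191212), in Drosophila moladietz and needed to mature the oxidase Duox, had ratios of 1.57 and 1.59 at D20 and D25. Its WT D25 range was 1991 to 2984 and its mutant range 3693 to 4610.3. qsm (LOC105189594), a gene for a membrane-anchored extracellular protein that in Drosophila takes part in light input to the clock, read 3559, 3839, 4024, and 4757 in WT and 7548, 7693, and 7917 in mutants at D25. Its D20 ratio of 1.52 lay just inside the threshold.

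emc (LOC105184380), extra macrochaetae, encodes a helix-loop-helix protein without a DNA-binding part that restrains proneural factors. It read 1558, 1685, 2036, and 3414 in WT and 4638, 4953, and 5104 in mutants at D25, and 1652 to 2053 against 2397 to 3874 at D20. Over the 4 stages in order, its WT means were 4488, 3364, 1866, and 2173 and its mutant means 3960.3, 4294, 3038, and 4898. The D25 mutant libraries overlapped the WT D10 range of 4120 to 5039 and lay above the mutant D10 range of 3445 to 4357. tow (LOC105192682), target of wingless, had ratios of 2.29 at D20 and 1.65 at D25. Of 8 tested genes of a bristle and sense organ patterning list, written after the members were known, emc and tow were the members. The list includes Notch, whose ratios were 1.89 and 1.87 at D20 and D25, and neur, a ligase for Notch ligands, with 1.77 and 2.02. In both genes the libraries of the genotypes overlapped at both stages. Among the other tested genes of the list, Su(H) had ratios of 0.886 and 2.18 and da 0.974 and 1.54. The ratios of ush were 1.24 and 2.02, and those of Dl 1.35 and 1.84.

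ken (LOC105186820), a BTB zinc finger repressor called ken and barbie in Drosophila, stood at 108 to 663 normalized counts in WT and 309 to 869.9 in mutants at D15. At D20 it read 2377, 4829, 5147, and 5823 in WT and 6507, 9043, and 10254 in mutants, 13.4 and 16.1 times the D15 means of the genotypes. Its D25 values were 4786 to 6111 and 9024 to 9814, without overlap. heca (LOC105181831), named for the homolog of headcase, had ratios of 1.65 and 1.81 at D20 and D25.

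Pvr (LOC105190724), the PDGF and VEGF receptor of flies, which acts in hemocytes and epithelia, read 683, 749, 798, and 828 in WT and 861, 1413, and 1432 in mutants at D20, and its D25 ratio was 1.58. plx (LOC105183667), pollux, a Rab GTPase activator, had 1.57 at both stages. path (LOC105189512), pathetic, an amino acid transporter, had 1.70 and 1.55. It rose from D10 to D15 in WT by 0.99 ± 0.21 on the log2 scale (adjusted p = 0.00186, edgeR), and at D15 its mutant mean of 1856 was below the WT mean of 2395. Obp5 (LOC105189917), an odorant-binding protein gene, was 1 of 11 tested genes of that list and its only member. It read 13.9 to 55.2 in WT and 56.6 to 67.6 in mutants at D25, just inside the minimum mean. The gene of the list called by edgeR was Pbp49, lower at D25 (ratio 0.514), and the list's median log2 fold changes were 0.36 at D20 and 0.14 at D25. The other 17 lists that matched a gene held 0 members.

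Members without a descriptive symbol were the most abundant. The merged locus LOC105188517.LOC112589549, an lncRNA, had the highest mutant D25 mean. It read 6529, 9059.9, 9148, and 9519.7 in WT and 16698, 17323, and 17690.2 in mutants at D25, and 5065 to 8002 against 9838 to 13361 at D20. It was also separated at D10, at 4957, 5880.1, and 6194 in WT and 7998, 14649, and 16796 in mutants. At D15 mutant replicate 1 stood at 139389 and WT replicate 1 at 37318, against 5017 to 10929 in the other 5 libraries. LOC105188568 is its neighbor, 1 gene away in the RefSeq table, and had ratios of 1.82, 2.22, 1.91, and 2.03 over the stages. The same libraries were highest for it at D15, with 6247 in mutant replicate 1 and 2938 in WT replicate 1.

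LOC105186916 had the next highest level, and its D20 ratio of 1.51 was the lowest of all members. It read 8848 to 10475 in WT and 10748 to 16606 in mutants at D20 and its ratios at D10 and D15 were 0.992 and 0.962. LOC105192456 and LOC105192698 both had their highest mean at D20 in both genotypes. The WT mean of LOC105192456 was 20.1 times higher at D20 than at D15 and its mutant mean 37.2 times, and at D25 the highest WT library (3826) was just under the lowest mutant library (3839).

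LOC105180829 had the largest D20 ratio, 6.23. Its WT D20 libraries were tight at 24.1, 24.2, 24.2, and 27.1 and its mutants spread over 48.1, 179, and 239. At D10 it stood at 203 to 229.6 in WT and 128 to 194 in mutants, so the D20 mutant libraries spanned the D10 mutant range while WT D20 lay far below that of WT D10. LOC105182743 had 37.6, 55.1, 101, and 254 in WT and 426, 442, and 1005 in mutants at D25, a ratio of 5.58. The pseudogene LOC112588468 had the second D25 ratio, 7.74, with 3.96 to 21.8 in WT and 42.4 to 109.8 in mutants, but at D15 it ran from 20.5 to 102 in WT and from 1.63 to 126 in mutants.

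LOC105188632 and the lncRNA LOC105188631 are adjacent in the RefSeq table, and the interval of the lncRNA lies inside that of the former. Per library, 49.9 to 50.7% of counts fell on the first strand, so strand does not tell reads of overlapping genes apart. Reads classed as ambiguous are in neither gene's count. LOC105188632 rose from D10 to D15 in WT by 2.58 ± 0.41 on the log2 scale (adjusted p = 0.00016, edgeR) and in mutants by 2.15 ± 0.43 (adjusted p = 0.00538), the latter call lost without mutant D10 replicate 1 (0.0618). At D25 it read 1367, 1694, 2994, and 4349 in WT and 5105, 6034, and 7569 in mutants. LOC112588219 and LOC105185353 are a further adjacent pair, with D20 ratios of 2.23 and 2.31 and D25 ratios of 1.55 and 1.61.

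The courses over time were varied. The stage with the highest WT mean was D10 in 22 members, D15 in 18, D20 in 16, and D25 in 22, shares close to those of the 9371 genes (28.2% against 32.0% at D10, and 28.2% against 27.7% at D25). In mutants it was at D25 in 49 members, or 62.8%, against 23.1% of the 9371 genes, which the rule favors because it requires high mutant values there. From D15 to D20 the mean was higher in both genotypes in 42 members, lower in both in 19, and lower in WT but higher in mutants in 17, among them Idgf4, path, Pvr, mol, and tow. The reverse, higher in WT only, was seen in 0. The rule favors this split, because it required mutant above WT values at D20. The shares of the split over the 9371 genes are not given here. The fall of Pvr in WT rests on WT D15 replicate 3, at 3014 normalized counts. Its other WT D15 libraries read 517 to 676, and its WT D20 libraries 683 to 828. The median fold of the members from D15 to D20 was 1.06 in WT and 1.59 in mutants, and from D20 to D25 1.06 and 1.20. Over the genes with the same minimum it was 0.992 and 1.01, and then 1.005 and 0.969. These steps use the libraries of the rule and were not tested.

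**Figure D4:**
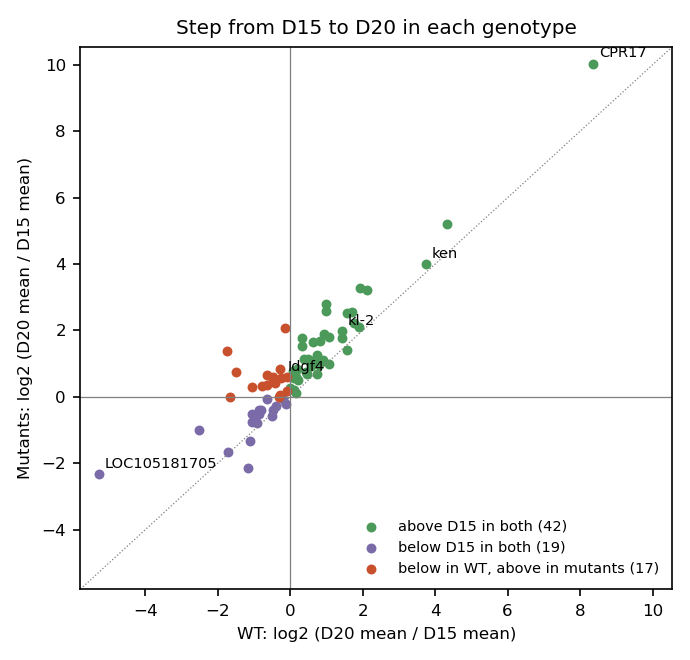
Log2 of the D20 mean over the D15 mean in WT (horizontal) and in mutants (vertical) for the 78 members, colored by the direction of the step, with a dotted line where the genotypes are equal. The 17 orange-red points are below their D15 level in WT and above it in mutants, and 70 of the 78 points lie above the dotted line. The rule favors points above the line, because it required mutant above WT values at D20, and the share over all genes is not given here.

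The step from D10 to D15 could be tested. In WT, 19 members rose, or 24.4% (15.2% of all genes tested), and 10 fell, or 12.8% (10.6% of all genes). In mutants 12 rose, or 15.4% (5.71% of all genes), and 1 fell, or 1.28% (4.6% of all genes). The median log2 change was 0.39 in WT and 0.53 in mutants over the members and 0.032 and 0.028 over all genes. The member LOC105192260 rose in both, by 2.03 ± 0.48 in WT (adjusted p = 0.00363, edgeR) and 3.45 ± 0.57 in mutants (adjusted p = 0.00176). The member that fell in mutants was LOC105188082 (−1.86 ± 0.29, adjusted p = 0.00154), and it fell in WT too. The difference of the step between genotypes passed in 0 of 78 members, with 4 higher and 4 lower at an unadjusted p under 0.05 (all genes 1.83% and 3.67%), and 0.00902% of all genes passed upward. These counts fell without single libraries: without WT D10 replicate 1, 2, or 3 the WT calls numbered 18, 19, and 14 in place of 29. Without mutant D10 replicate 1 or 2 or D15 replicate 1 the mutant calls numbered 3, 4, and 5 in place of 13. With only the 2 groups of a step in the fit, 18 members passed in WT, and in mutants 0 of 76 did, with 27 at an unadjusted p under 0.05 and a lowest adjusted p of 0.0749 (edgeR). DESeq2 called 22.

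Libraries and batch moved with the D20 and D25 values. In mutant D20 replicate 1, from batch 1, the median log2 deviation of the members from their mean was 0.52, against 1.05 and 0.96 in replicates 2 and 3, from batch 3, and −0.28 to −0.17 in the WT D20 libraries. Within batch 1 the median D20 ratio of the members was 1.56, with 45 above 1.5 (7.57% of the 9371 genes were). Within batch 3 it was 2.04 with 70 above 1.5 (background 13.6%), and at D25 within batch 3, with a single WT library, 1.79 with 54 above 1.5 (background 15.6%). All 78 mutant values were above WT in each of these comparisons, which use the libraries of the rule. Without mutant D20 replicate 1, 402 genes would meet the rule. Without WT D20 replicate 4 it would be 179, and without WT D25 replicate 4, 121.

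The scaling of the counts set the membership. A single gene, LOC105189609, took up to 40.4% of the counts of a library, in mutant D25 replicate 1. Scaled by library size in place of the deposited size factors, the D25 ratio of the 9371 genes had a median of 0.667 and that of the members 1.35, with 76 of 78 above 1. The exceptions were path (0.998) and LOC105190506.LOC105190507 (0.990). At D20 the medians were 0.999 and 1.86, and all 78 were above 1. By library size 11 genes met the rule, of which 10 were members, among them kl-2, Scp2, Idgf4, G3243, LOC105180829, LOC105181153, LOC105191426, LOC105188632, and LOC105187598. With edgeR's TMM factors 77 genes met it, 71 of them members.

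**Figure D5:**
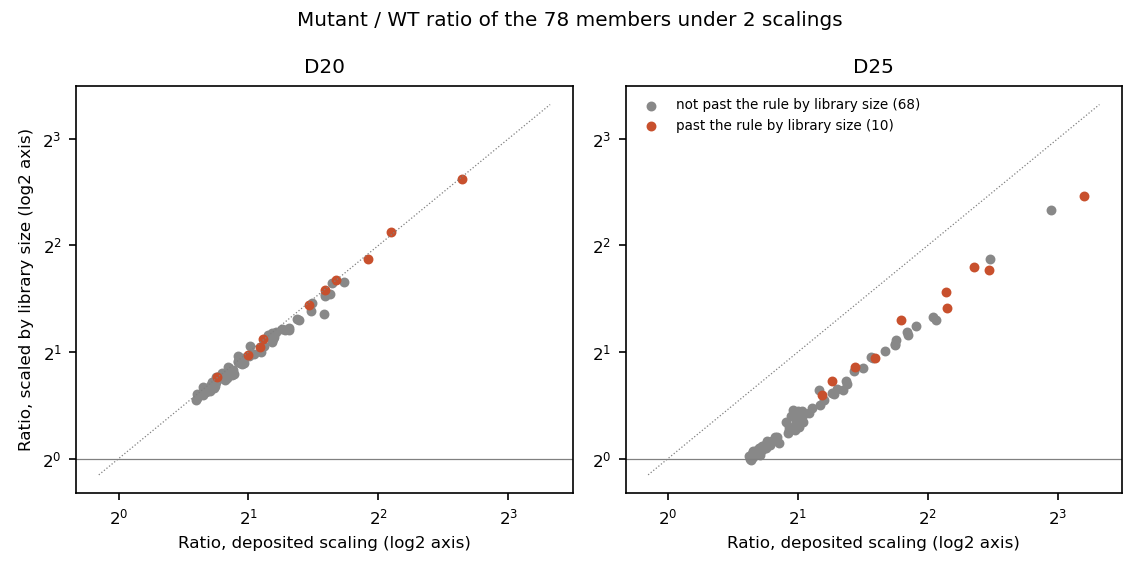
Ratio of the mutant to the WT mean of the 78 members at D20 (left) and D25 (right) with counts scaled by the deposited size factors (horizontal, log2 axis) and by library size (vertical, log2 axis), with a dotted line of equal values. The 10 orange-red points met the rule under both; at D25 all points lie below the dotted line and 2 lie below a ratio of 1.

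Near the thresholds, the lowest ratios inside were 1.51 for LOC105186916, 1.520 for qsm, and 1.523 for LOC105187882, and the highest outside were 1.496 for LOC105185179, 1.495 for c12.2, and 1.48 for LOC105191640. The lowest mutant D25 means inside were 53.6 for LOC105189587, 56.1 for LOC105188370, and 61.0 for Obp5, and the highest outside were 47.7, 45.0, and 44.1 for LOC105187454, LOC105186121, and LOC112588341. The lowest mutant library was 1.0001, 1.003, and 1.005 times the highest WT library in G12949, LOC105192456, and LOC105190182, and 0.9963, 0.9961, and 0.991 times in LOC105188970, LOC105191445, and LOC105186937, which missed.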

How the data were processed

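Per the labels, antennal RNA of H. saltator pupae was sequenced in 3 batches. The authors mapped reads with STAR 2.6.1d and deposited counts per gene; they also deposited normalized signal: each library's counts over its DESeq2 1.34.0 size factor. Size factors recomputed here gave that table within 7.5e-08. Of all reads, 2.86 to 33.2% were unmapped, 0.900 to 3.24% multimapping, 6.34 to 20.1% on no gene, and 1.36 to 4.13% ambiguous, and these are in no gene's count.

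Members were found in the normalized table. Genes averaging 10 or more counts were tested with edgeR 4.0.16 (R 4.3.3; TMM, quasi-likelihood, two-sided) in 1 model of 8 groups, with Benjamini-Hochberg adjustment per contrast and a threshold of 0.05. DESeq2 1.42.0 gave a second test. Both tests were first tried on simulated counts with known changes. Alternatives were other scalings, filters, batch or replicate number as a term, fewer libraries, and each library left out. Further gene lists (3) were added after the members were seen, among them the dynein and bristle lists. Errors are SE for log2 fold changes. Shallow libraries are less precise, and limits cover counting error only.

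The members and gene lists were chosen with earlier results of these data known. Chosen for naming were members with an informative symbol, the 10 most abundant, and the 10 with the largest D25 ratio. Members called between genotypes at D10 or D15, members adjacent to another, and genes nearest each threshold were also chosen. Not all of those chosen are described, among them G5114, LOC105185081, and LOC109504107. The genes whose D10 and D15 tests are printed were chosen after their values were seen. Symbols came from the RefSeq gene table (assembly Hsal_v8.6), in which 13602 gene IDs matched. Of the deposited columns, 0 matched no library. The values of 1 member are not reported here.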

Additional observations from a re-analysis of the deposited data

Results flagged for a closer look

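Among the 40 members chosen for naming, plus the median of all members, each WT group of 4 libraries was screened for a library far from the others. Of 123 groups, 10 were picked out, or 8.13%. The screen is set to pick out about 1 in 20 groups of independent, normally spread values. These groups share the same libraries, and their D20 and D25 values helped choose the members, so the 8.13% cannot be judged against that rate. At D15 the library was the highest each time. WT D15 replicate 3 stood at 183 normalized counts for LOC105182743 (19.8 to 39.2 in the others), at 73.0 for LOC105188370 (16.9 to 22.8), and at 3014 for Pvr (517 to 676). WT D15 replicate 4 stood at 329 for CARPB (121 to 134) and at 8494 for qsm (2079 to 2622). WT D15 replicate 1 stood at 37318 for LOC105188517.LOC112589549 (5017 to 7297). At D20, WT replicate 1 was low for G3243, at 22.7 (47.8 to 52.9), and WT replicate 3 was highest for LOC105180829, at 27.1 (24.1 to 24.2), and for plx, at 1506 (1437 to 1447). At D25, WT replicate 4 was low for LOC105188517.LOC112589549, at 6529 (9059.9 to 9519.7).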

How the results depend on the processing

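The number of genes meeting the rule was 78 and became 11 by library size and 25 with a ratio above 2, and 72 to 402 over 14 omissions of 1 library. The calls of 0 members at D10 and D15 held in all fits run. Members changed from D10 to D15 numbered 29 in WT, 18 with only those groups in the fit, and 14 to 36 over 7 omissions of 1 library. In mutants they numbered 13, 22 by DESeq2's test (20 higher, 2 lower), 6 by library size, 0 with only those groups, and 3 to 18 over 6 omissions; with a batch term 12 were higher and 7 lower. The members' median log2 fold change was 0.11 at D10 and 0.24 by library size, and 1.03 at D25 and 0.43 by library size. No omission of 1 library turned its sign at D10 or D15. At D20 and D25 the rule all but fixed the sign in advance, so omissions there are no check. Replicate numbers did not pair the libraries: deviations of same-numbered WT and mutant libraries correlated from −0.242 to 0.372. With a replicate block 0 members were called at D10 and D15, 29 changed in WT, and 13 in mutants. The cause of these differences was not tested. Depth limits the genes at few counts: in WT D25 replicate 3, 1 count of G3243 stood for 4.597 normalized counts.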
